A study of Mus musculus with 23 samples.

Results

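The genes of glucose breakdown and its hypoxia-responsive control were followed in striatal microglia from mice that self-administered methamphetamine. The 10 genes are Slc2a1, Hk2, Pfkl, Aldoa, Gapdh, Pgk1, Pkm, Ldha, Pdk1 and Hif1a. They were taken by symbol from a count table of 35976 genes, and all 10 were among the 16121 genes kept by a filter on low counts. RNA was sequenced in bulk from microglia of the striatum of male C57BL/6J mice, aged 9 weeks, that pressed levers for intravenous infusions in daily 2 hr sessions over 15 days. The Saline group (n = 8 libraries) infused saline and the Maintenance group (n = 8) infused methamphetamine hydrochloride, a psychostimulant, at 0.05 mg/kg per infusion, and both were collected directly after the last session. The Abstinence group (n = 7) infused methamphetamine at the same dose and then stayed in the home cage for 21 days without the drug before collection. The labels give 9 weeks for all 3 groups, and which stage this age refers to is not known. No saline group passed through the 21 days. Drug history, time since the sessions and possibly age at collection thus differ together between Abstinence and Saline and cannot be told apart. Between Abstinence and Maintenance, time without the drug, home-cage days, time since the last session and possibly age at collection also differ together and cannot be told apart. In the labels the cells are Microglia and the tissue is Neuronal. Whether the replicates come from different animals is not stated, and p-values here refer to the spread between libraries, which may in part be technical.

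Glycolysis splits glucose into pyruvate in the cytosol. Glucose enters through transporters such as GLUT1, is trapped by hexokinase, is committed by phosphofructokinase and is then carried through aldolase, glyceraldehyde-3-phosphate dehydrogenase, phosphoglycerate kinase and pyruvate kinase. Pyruvate is reduced to lactate by lactate dehydrogenase or enters mitochondria, where pyruvate dehydrogenase kinases hold back its oxidation. The transcription factor HIF-1, of which Hif1a encodes the oxygen-regulated subunit, binds promoters of many of these genes in low oxygen, and HIF-1α is controlled mostly through degradation of the protein, which mRNA levels do not show. Microglia, the resident macrophages of the brain, are known to shift toward glycolysis on inflammatory activation.

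Total counts ranged from 55.0 to 94.8 M (1 M is 1000000 counts) per library, and 12459 to 17034 genes had at least 1 count. The fewest genes were in Maintenance 6 (12459) and Maintenance 7 (12740), at totals of 72.1 and 83.8 M. Every other library had 14727 genes or more. The 10 genes together took 0.263% to 0.398% of a library's counts, and the least abundant of them, Pgk1, had 4271 to 14753 counts, so counting error is small beside the spread between libraries. Levels are given as CPM (counts per M, scaled by TMM factors). The microglial genes Tmem119, P2ry12 and Cx3cr1 measured 4210 ± 667, 9504 ± 958 and 5245 ± 563 CPM in Saline (SD, n = 8). The 12 microglial markers summed to 54309 to 69317 CPM in Saline, 45245 to 67010.3 in Maintenance and 57647 to 66789.9 in Abstinence. Among the libraries, Maintenance 8 stands apart: its 9 choroid plexus and ependymal markers, which include Ttr, Enpp2 and Folr1, summed to 73478 CPM, against 23.1 to 355 CPM in the other 22. Maintenance 6 had the highest summed endothelial markers (1631 CPM), with Maintenance 7 next (1092 CPM). Results for the 10 genes that rest on these 3 libraries are given with and without them, except in fits with marker covariates.

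The promoters were read from RefSeq (GRCm38.p6) as the 250 bases before each start of a fixed set, 15 windows in all for the 10 genes, all of which matched by symbol. These starts are not always the outer gene bounds given below. The windows of Aldoa, Gapdh, Ldha and Hif1a lie inside their genes, and no Pdk1 window ends exactly at the bound. Starts at those outer bounds were not searched on their own. Each was searched on both strands for ACGTG and for GCGTG, the letters that the core of the HIF-1 binding site takes. Of the 10 genes, 7 held ACGTG, 5 held GCGTG and all 10 held either in at least 1 window. The shares over the 27025 genes with such a window were 18.5%, 30.9% and 41.5% (either). The first Aldoa window, the first Pkm window and the second Pdk1 window held neither. Those 27025 genes had 32851 windows and are all annotated genes, not only the genes tested. The 10 genes were chosen by name for glycolysis and response to hypoxia, so the shares are descriptions. CACGTG, the palindrome that contains ACGTG on both strands and is also bound by MYC and USF proteins, was in windows of 2 genes, Ldha and Hif1a, and in 6.86% of all genes. The 4 windows below show how the letters are placed in the gene that was called in Maintenance (Pdk1) and in the textbook HIF-1 targets Ldha, Pgk1 and Hk2. Each runs 5′ to 3′ on the gene's strand and ends at the base before the start, with the matched letters of either strand in capitals (ACGTG reads CACGT and GCGTG reads CACGC from the opposite strand). A match is a run of letters and not a measured binding site.
Pdk1, chr2:71872974-71873223, plus strand: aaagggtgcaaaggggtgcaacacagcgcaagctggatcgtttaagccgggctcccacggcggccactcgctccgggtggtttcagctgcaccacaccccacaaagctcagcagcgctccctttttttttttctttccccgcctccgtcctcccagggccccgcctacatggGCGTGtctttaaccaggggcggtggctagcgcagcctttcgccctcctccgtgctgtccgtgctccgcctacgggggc
Ldha, chr7:46845554-46845803, plus strand: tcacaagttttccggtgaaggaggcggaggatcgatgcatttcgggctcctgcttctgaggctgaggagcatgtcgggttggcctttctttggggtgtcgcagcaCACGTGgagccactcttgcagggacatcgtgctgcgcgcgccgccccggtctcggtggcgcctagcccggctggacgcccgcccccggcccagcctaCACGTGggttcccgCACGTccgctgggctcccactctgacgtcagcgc
Pgk1, chrX:106186850-106187099, plus strand: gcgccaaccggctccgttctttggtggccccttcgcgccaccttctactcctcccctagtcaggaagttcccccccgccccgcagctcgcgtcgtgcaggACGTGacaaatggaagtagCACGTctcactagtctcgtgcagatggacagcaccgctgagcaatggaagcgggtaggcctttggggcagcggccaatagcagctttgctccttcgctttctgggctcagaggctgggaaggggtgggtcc
Hk2, chr6:82774455-82774704, minus strand: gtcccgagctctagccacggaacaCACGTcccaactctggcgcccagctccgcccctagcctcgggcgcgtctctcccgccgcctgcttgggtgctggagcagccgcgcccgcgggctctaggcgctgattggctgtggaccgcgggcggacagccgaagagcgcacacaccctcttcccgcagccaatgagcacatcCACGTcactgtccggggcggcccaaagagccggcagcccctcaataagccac
Ldha had the most matches, in 3 stretches that begin 145, 48 and 34 bases before the start, and 2 of these are CACGTG. Pgk1 had 2 stretches, 150 and 131 bases before the start, and Hk2 had 2, at 226 and 52 bases. Pdk1 had a GCGTG 78 bases before the start and no ACGTG.

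Of the 10 genes, only Pdk1 and Pfkl passed the test, in 1 comparison each and not in the same one. Maintenance against Saline asks what differs at the end of drug taking. Here 1 of the 10 genes was called, Pdk1, which fell, at an adjusted p under 0.05 in a fit of all 16121 genes, of which 114 (0.707%) were called, 60 of them lower (0.372%). Abstinence against Saline asks what differs after 21 days without the drug. By edgeR 0 of 10 were called, with Pfkl alone at an unadjusted p under 0.05, against 3 genes called in all (0.0186%, of which 0.0124% higher and 0.0062% lower) and 4.39% at an unadjusted p under 0.05. DESeq2, which called 36 of the 16121 genes there, also called 0 of the 10, and limma voom, which called 208, called 1, Pfkl. Abstinence against Maintenance asks what differs between taking and abstinence, together with time since the sessions and possibly age at collection. Of the 10 genes 1, Pfkl, fell, against 153 genes (0.949%) called, 89 of them lower (0.552%). In that comparison 4 of the 10 were at an unadjusted p under 0.05 (Pfkl, Pdk1, Ldha and Slc2a1), against 11.0% of all genes. No gene of the 10 had groups that did not overlap in any comparison, which 0.416%, 0.198% and 0.403% of all genes had in the same order. Positive log2 fold changes were found for 7, 2 and 2 of the 10 in the 3 comparisons. The median log2 fold change of the 10 was 0.04 for Maintenance over Saline, -0.08 for Abstinence over Saline and -0.12 for Abstinence over Maintenance, beside all-gene medians of 0.0052, 0.0078 and 0.0064. Without Maintenance 6, 7 and 8 the medians of the 10 were 0.03, -0.09 and -0.0082, Pdk1 was again the 1 gene called in Maintenance against Saline, and the 1 gene called in Abstinence against Maintenance was Pdk1, higher, in place of Pfkl. Each group enters 2 of the 3 comparisons, so their fold changes are not independent of each other.

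**Figure D1:**
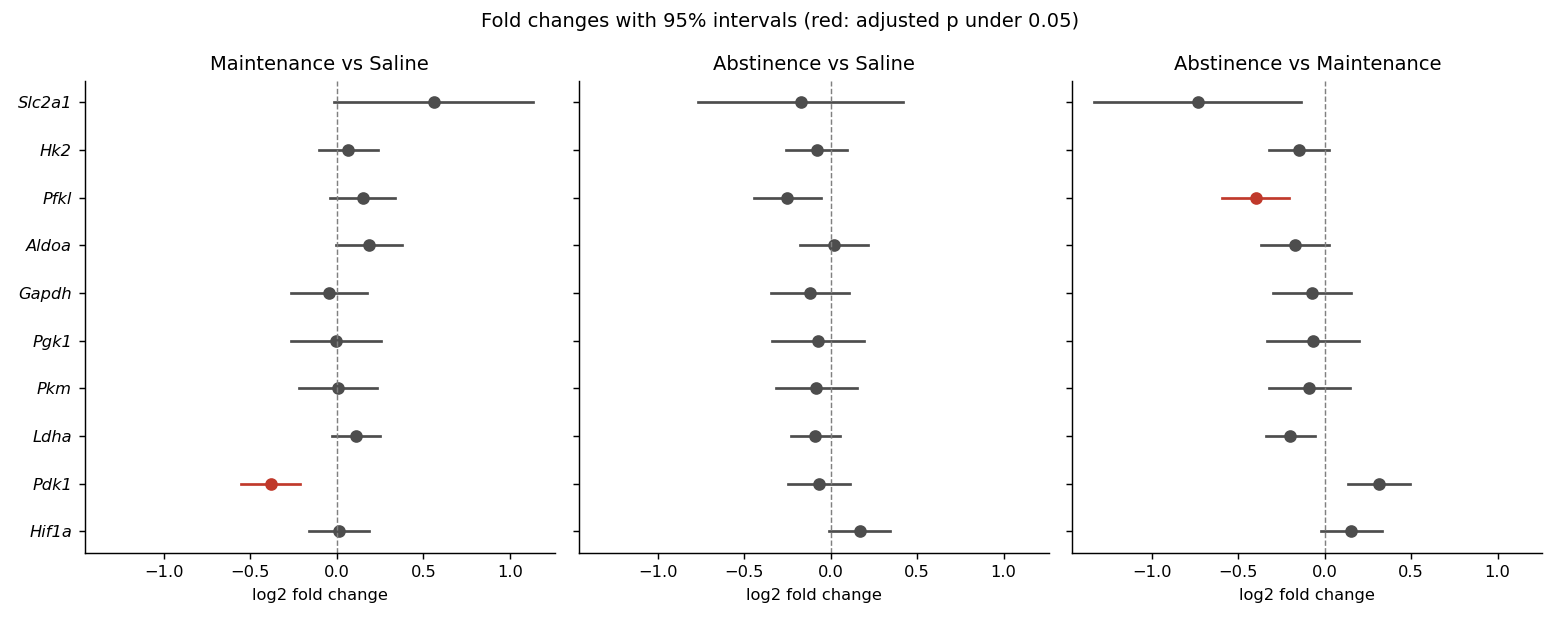
Log2 fold changes of the 10 genes (points) with 95% intervals (lines) from the edgeR fit in the 3 comparisons, with the group named first over the group named second. Pdk1 lies at -0.38 in Maintenance against Saline and Pfkl at -0.40 in Abstinence against Maintenance, the 2 called values (red), while Slc2a1 has the widest intervals.

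**Figure D2:**
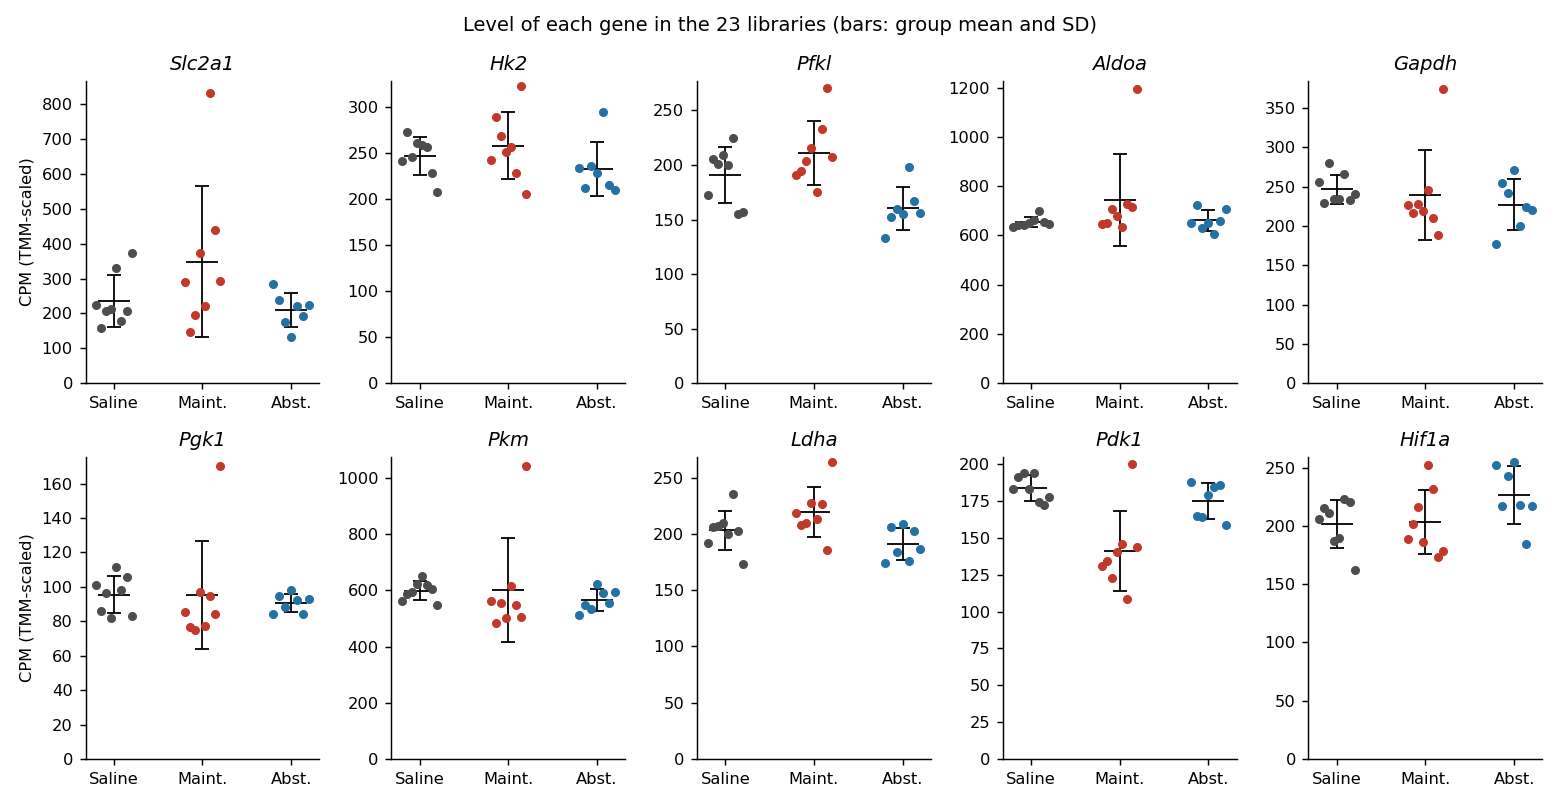
Level of each gene in CPM (vertical axis, from 0) in every Saline, Maintenance and Abstinence library (points), with the group mean and SD (black bars). The Maintenance libraries of Pdk1 lie at 109 to 146 CPM but for Maintenance 7 at 200.4, and the high Maintenance point of Aldoa, Gapdh, Pgk1 and Pkm is Maintenance 8 in each.

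Slc2a1 (chr4:119108745-119137330, plus strand) encodes GLUT1, the facilitative glucose transporter that is most abundant in the endothelium of the blood-brain barrier and is also used by activated macrophages. Its level ran from 159 to 373 CPM in Saline (median 211), from 148 to 832 in Maintenance (median 291) and from 133 to 283 in Abstinence (median 220.2). The groups overlap, 2 Maintenance libraries (6 and 7, at 832 and 439 CPM) lie above every Saline library, and all 7 Abstinence libraries lie below the Maintenance median. The log2 fold change was 0.56 ± 0.28 (SE) for Maintenance over Saline (edgeR adjusted p = 0.441), -0.18 ± 0.29 for Abstinence over Saline (adjusted p = 0.999) and -0.74 ± 0.29 for Abstinence over Maintenance (adjusted p = 0.297). The 95% interval of the last, -1.34 to -0.14, leaves out 0 before adjustment but the change did not pass over all genes. Without Maintenance 6, 7 and 8 the same values were 0.048 ± 0.23, -0.19 ± 0.21 and -0.23 ± 0.23, with adjusted p of 0.984, 0.954 and 0.871.

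The libraries at both ends of the order by Slc2a1 were those at the ends of the order by endothelial markers. All 10 endothelial markers were tested and none was at 0 in a group, and their summed level ran from 239 to 832 CPM in Saline, from 233 to 1631 in Maintenance and from 224 to 1025 in Abstinence. The libraries with the most Slc2a1, Maintenance 6 and 7, were also ranked 1 and 2 of 23 for endothelial and for pericyte markers, and those with the least, Maintenance 2 and Abstinence 4, were ranked 22 and 23 for both. Between the ends the orders differed: Saline 1 ranked 10 by Slc2a1 and 18 by endothelial markers, Maintenance 8 ranked 6 and 14, Saline 7 ranked 16 and 8, and Abstinence 7 ranked 11 and 5. Cldn5, the main tight-junction gene of brain endothelium, measured 158 CPM in Maintenance 6, against a Saline range of 27.7 to 128, while its group mean was 72.0 CPM in Maintenance and 74.5 in Saline. Pecam1, an endothelial adhesion gene, measured 46.1 CPM in Maintenance 6, within its Saline range of 33.5 to 56.3. With the mean of the endothelial markers as a covariate, Slc2a1 was lower in Abstinence than in Maintenance by the test (log2 fold change -0.51 ± 0.12, adjusted p = 0.0210), while Maintenance over Saline was 0.29 ± 0.11 (adjusted p = 0.250). Of 14 other settings only this 1 called Slc2a1 between Abstinence and Maintenance, and 0 of 23 fits without 1 library did. The covariate fit was not run without Maintenance 6, 7 and 8. In bulk libraries such as these, a change in the number of cells of a type and a change in RNA per cell cannot be told apart. The genes whose pattern over the 23 libraries was most like that of Slc2a1, by the root mean square difference of SD-scaled log2 CPM among 9450 genes, were Tsc22d1 (0.36 SD units) and Ly6c1 (0.37), the latter one of the endothelial markers, beside a median of 1.44 over those genes.

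**Figure D3:**
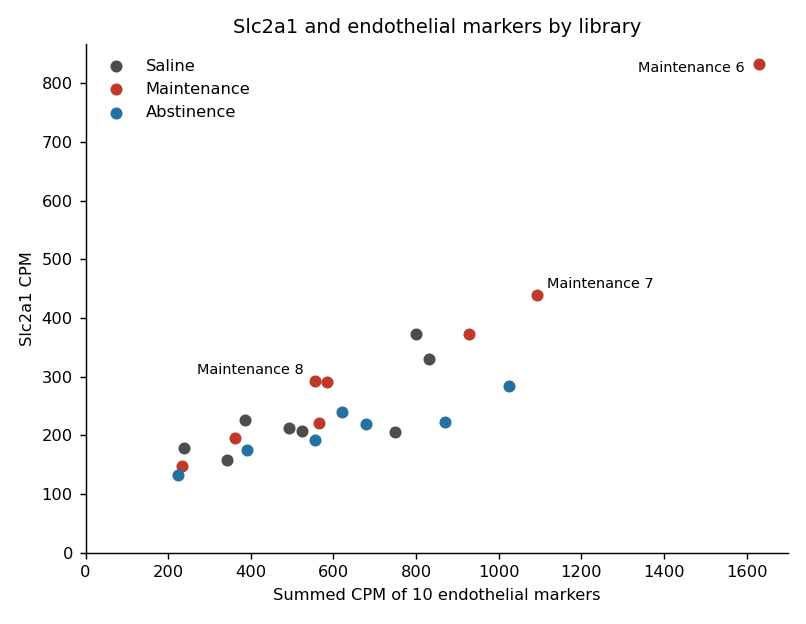
Slc2a1 in CPM (vertical axis) against the summed CPM of 10 endothelial markers (horizontal axis), with 1 point per library and colours for the groups. Maintenance 6 (832 and 1631 CPM) and Maintenance 7 (439 and 1092 CPM) lie at the upper right, and Maintenance 8 (292 and 555 CPM) lies within the range of the other libraries.

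Per base of exon, Slc2a1 was a minor sugar transporter transcript. Among the 5 listed family members, Slc2a5, which encodes the fructose transporter GLUT5 long used as a microglial marker, held 76.5 ± 4.78% of the summed CPM per kb in Saline (SD, n = 8), Slc2a1 16.5 ± 5.29%, Slc2a8 5.93 ± 0.765% and Slc2a3, the neuronal-type transporter GLUT3, 0.841 ± 0.475%. In Maintenance the Slc2a1 share was 23.4 ± 10.8%, with 45.8% in its highest library, and in Abstinence 14.2 ± 3.10%. Slc2a8, which encodes the intracellular hexose transporter GLUT8, measured 43.8 to 70.7 CPM in Saline (median 55.0), 28.9 to 47.2 in Maintenance (median 42.0) and 39.9 to 68.9 in Abstinence (median 55.6). It was higher in Abstinence than in Maintenance, with a log2 fold change of 0.50 ± 0.12 (adjusted p = 0.0428) and 6 of 7 Abstinence libraries above the highest Maintenance library. Against Saline, all 8 Maintenance libraries lay below the Saline median and the log2 fold change was -0.46 ± 0.12, which missed the threshold (adjusted p = 0.0666) and passed in DESeq2 (adjusted p = 0.0194). The call between Abstinence and Maintenance was lost in 6 of 14 other settings and in 15 of 23 fits without 1 library (Saline 1, 2, 3, 5 or 6, Maintenance 1, 2, 4, 5 or 6, or Abstinence 2, 3, 4, 6 or 7), with adjusted p of 0.0509 to 0.120 in those 15.

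Of the 8 listed transporters of sugar and lactate, Slc2a8 was the only gene called, in 1 comparison. This was Abstinence against Maintenance, where 0.949% of all genes were called. There 3 of the 8 were at an unadjusted p under 0.05, against 11.0% of all genes. None was called in Maintenance or in Abstinence against Saline by edgeR, with 1 at an unadjusted p under 0.05 in each (11.8% and 4.39% of all genes). DESeq2 and limma voom each called Slc2a8 in Maintenance against Saline. Slc2a5 measured 1074 ± 115, 977 ± 117 and 1131 ± 87.5 CPM in Saline, Maintenance and Abstinence (Abstinence over Maintenance 0.21 ± 0.08, adjusted p = 0.227). Slc2a3 measured 14.9 ± 9.27, 11.6 ± 6.66 and 7.94 ± 3.27 CPM, with a log2 fold change of -0.91 ± 0.36 for Abstinence over Saline (adjusted p = 0.864). The lactate exporter gene Slc16a3 (MCT4) measured 23.1 ± 8.74, 17.1 ± 4.32 and 25.9 ± 6.00 CPM, at 0.60 ± 0.22 for Abstinence over Maintenance (adjusted p = 0.230), and Slc16a1 (MCT1) had log2 fold changes from -0.07 to 0.19 over the 3 comparisons.

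Hk2 (chr6:82725025-82774454, minus strand) encodes hexokinase 2, the inducible enzyme that phosphorylates glucose and docks on mitochondria. It ranged from 207 to 273 CPM in Saline (median 252), from 206 to 323 in Maintenance (median 255) and from 210.3 to 295 in Abstinence (median 229). The groups overlap almost fully, the highest library is Maintenance 7 and the lowest is Maintenance 8. The log2 fold changes were 0.07 ± 0.08, -0.08 ± 0.09 and -0.15 ± 0.09 for Maintenance over Saline, Abstinence over Saline and Abstinence over Maintenance, with adjusted p of 0.863, 0.999 and 0.577 and 95% intervals of -0.10 to 0.24, -0.26 to 0.09 and -0.32 to 0.03. Per kb of exon, Hk2 made up 54.7 ± 2.89% of the 3 hexokinase transcripts in Saline, the myeloid enzyme gene Hk3 40.4 ± 3.08% and the brain form Hk1 4.94 ± 1.34%. The Hk2 share was 58.2 ± 5.79% in Maintenance and 52.8 ± 6.13% in Abstinence, within the spread of the libraries. Hk3 measured 109 ± 15.0, 95.1 ± 20.3 and 110 ± 16.4 CPM in the 3 groups (Maintenance over Saline -0.20 ± 0.12, adjusted p = 0.562) and Hk1 19.1 ± 4.42, 22.9 ± 12.2 and 21.2 ± 3.56. The genes most like Hk2 over the 23 libraries were Sbf2 and Cttnbp2nl (0.58 and 0.61 SD units).

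Pfkl (chr10:77986947-78009807, minus strand), the liver-type phosphofructokinase that catalyses the committed step, fell in Abstinence relative to Maintenance. It measured 155 to 225 CPM in Saline (median 200.5), 176 to 270.1 in Maintenance (median 205) and 134 to 198 in Abstinence (median 156). All 7 Abstinence libraries lie below the medians of both other groups and 6 of 7 lie below the lowest Maintenance library, the exception being Abstinence 5 at 198 CPM. The log2 fold change for Abstinence over Maintenance was -0.40 ± 0.10 (adjusted p = 0.0370), a level 0.758 times that of Maintenance (95% interval 0.662 to 0.868). Against Saline it was -0.25 ± 0.09, at an unadjusted p of 0.0134 and an adjusted p of 0.829, and limma voom with quality weights called that change (-0.30 ± 0.07, adjusted p = 0.0249). Maintenance over Saline was 0.15 ± 0.09 (adjusted p = 0.580), with Maintenance 6 and 7 (233 and 270.1 CPM) above all Saline libraries.

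The Pfkl call is close to the threshold. Without Maintenance 6, 7 and 8 the log2 fold change was -0.30 ± 0.09 (adjusted p = 0.133), and leaving out 1 of Maintenance 4, 6 or 7 or of Abstinence 1, 2, 3, 4, 6 or 7 gave adjusted p of 0.0502 to 0.0895. The call was also lost with 1 surrogate variable (-0.31, adjusted p = 0.158) and with only the compared groups in the fit (-0.41, adjusted p = 0.0627). In the 17 libraries of a second deposited table it was lost too (-0.30, adjusted p = 0.0899), and Pdk1 was the member called (0.37, adjusted p = 0.00336). That table also lacks Maintenance 6, 7 and 8, so its fit is not separate from the fit without them. In the same comparison, all 6 tested erythrocyte markers of 7 had positive log2 fold changes (summed 60.0 to 503 CPM in Maintenance, where Slc4a1 was at 0, and 81.5 to 766 in Abstinence) and all 8 border macrophage markers had negative ones (214 to 428 and 199 to 266 CPM, none at 0), with 0 of either list called. Among the other lists, positive values were found for 9 of 12 microglial and 8 of 10 neuron markers (medians 0.13 and 0.59). Negative ones were found for 8 of 10 endothelial and 7 of 9 tested neutrophil markers (-0.28 and -0.62). The remaining lists were more evenly split, and 0 genes of any list were called. The part of these lists in the result was not tested beyond fits with marker covariates. With the endothelial markers as a covariate the value was as large (-0.39 ± 0.10, adjusted p = 0.0363). Pfkl held 91.7 ± 3.67% of the phosphofructokinase transcripts per kb in Saline, 88.6 ± 11.9% in Maintenance and 89.2 ± 3.11% in Abstinence. Pfkp, the platelet-type form, had a mean of 20.3 ± 37.7 CPM in Maintenance, of which 113 CPM was in Maintenance 8, beside a Maintenance median of 6.68 and a Saline median of 6.57. Pfkfb3, whose product makes the activator of phosphofructokinase, measured 195, 180 and 207 CPM in Saline, Maintenance and Abstinence, at -0.11 ± 0.11, 0.09 ± 0.11 and 0.20 ± 0.11 in the 3 comparisons, none of them called.

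The 4 enzymes of the lower pathway gave no call, and Maintenance 8 was the highest of the 23 libraries for each. Aldoa (chr7:126795234-126800994, minus strand), the aldolase that splits fructose bisphosphate, measured 633 to 698 CPM in Saline (median 649), 633 to 1195 in Maintenance (median 692) and 605 to 725 in Abstinence (median 650.4). Gapdh (chr6:125161852-125166467, minus strand), the NADH-forming dehydrogenase often used as a reference gene, measured 229 to 280.3 CPM (median 237), 189 to 375 (median 223) and 177 to 271 (median 225) in the same order. Every group overlaps the others for both genes, and the upper end of the Maintenance range is Maintenance 8 for each. Pgk1 (chrX:106187100-106203699, plus strand), which makes the first ATP of the pathway, measured 81.9 to 111 CPM in Saline (median 97.1), 75.0 to 170.3 in Maintenance (median 84.8) and 84.1 to 98.2 in Abstinence (median 92.4). Pkm (chr9:59656576-59679372, plus strand), the pyruvate kinase of brain and immune cells, measured 549 to 651 CPM (median 600.2), 484 to 1045 (median 552) and 513 to 623 (median 556). The counts are per gene, so the M1 and M2 forms of Pkm, which come from alternative exons, are not separated.

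For Maintenance over Saline the log2 fold changes were 0.19 ± 0.09 for Aldoa (adjusted p = 0.438), -0.05 ± 0.11 for Gapdh (0.943), -0.0054 ± 0.13 for Pgk1 (0.995) and 0.0063 ± 0.11 for Pkm (0.994), and in the other comparisons they lay between -0.17 and 0.02. Maintenance 8 held 1.76 times the mean of the other 7 Maintenance libraries for Aldoa, 1.71 for Gapdh, 2.02 for Pgk1 and 1.94 for Pkm, with 1.24 for Ldha and 0.775 for Hk2. Without it, Maintenance over Saline was 0.05 ± 0.05 for Aldoa, -0.17 ± 0.08 for Gapdh, -0.18 ± 0.08 for Pgk1 and -0.16 ± 0.06 for Pkm, with adjusted p of 0.747, 0.381, 0.326 and 0.206. The direction for Pkm in this comparison thus turns, and that for Pgk1 turns under RLE size factors (0.018). For Abstinence over Maintenance the direction turns without Maintenance 8 for Gapdh (0.040), Pgk1 (0.096) and Pkm (0.061), none called. The choroid and ependymal markers of Maintenance 8 summed to 73478 CPM, and their part in these 4 values was not tested. Gapdh has 78 near-identical transcripts (at least 95% over 200 bases) in GENCODE, Pgk1 and Ldha 4 each and Pkm 2, of which 4 Gapdh copies are in the table with 0.272% of the Gapdh counts, so reads shared with copies are uncertain.

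**Figure D4:**
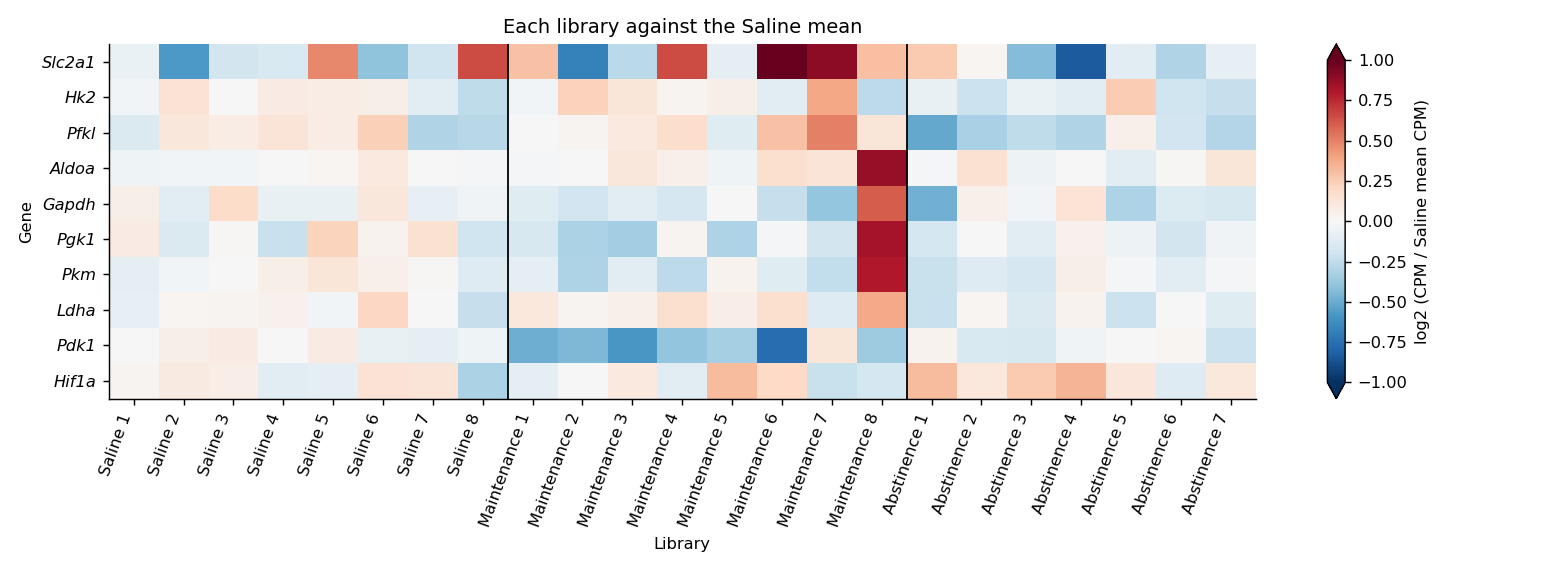
Level of each gene (rows) in each library (columns, black lines between groups) as the log2 ratio of its CPM to the Saline mean, with the colour scale ending at -1 and 1. The Pdk1 row is blue in 7 of 8 Maintenance libraries, Maintenance 8 is red for Aldoa, Gapdh, Pgk1, Pkm and Ldha, and Slc2a1 varies most among libraries.

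The spread within a group was small for most of the 10. In Saline the coefficient of variation was 3.08% for Aldoa, smaller than for all but 0.105% of the genes tested, 4.71% for Pdk1 and 5.55% for Pkm, beside a median of 27.9% over 16121 genes. The all-gene values include genes with few counts, whose counting error is larger. No comparison with genes of like abundance was made, so a small value is not shown to be a trait of these genes. Slc2a1 had 31.5% in Saline, 62.1% in Maintenance and 23.1% in Abstinence, beside all-gene medians of 27.9%, 44.8% and 29.4%. In Maintenance the values for Aldoa, Gapdh, Pgk1 and Pkm were 24.9%, 23.9%, 33.1% and 30.6%, which hold the Maintenance 8 library. Per kb of exon in Saline, Aldoa was highest (255 ± 7.84 CPM per kb), followed by Pkm (231 ± 12.8), Gapdh (165 ± 12.6), Ldha (107 ± 9.13), Slc2a1 (72.6 ± 22.9), Pgk1 (52.3 ± 5.90), Pfkl (51.1 ± 6.92), Hk2 (44.0 ± 3.73), Hif1a (37.0 ± 3.82) and Pdk1 (35.4 ± 1.67). Neighbours in this order overlap in their ranges except Pkm with Gapdh and Gapdh with Ldha. The exon lengths are those of 1 set of gene models, and the libraries' own transcript forms are not known. How reads shared with near-identical copies, most numerous for Gapdh, enter this order is not known either.

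Ldha (chr7:46842274-46855627, plus strand) encodes the lactate dehydrogenase subunit that favours lactate formation. It measured 174 to 235 CPM in Saline (median 204), 186 to 264 in Maintenance (median 216) and 174 to 209 in Abstinence (median 187). Of the Maintenance libraries 7 of 8 lie above the Saline median, and all 7 Abstinence libraries lie below the Maintenance median with 3 below its lowest library. The log2 fold change was 0.11 ± 0.07 for Maintenance over Saline (adjusted p = 0.583), -0.09 ± 0.07 for Abstinence over Saline (0.999) and -0.20 ± 0.07 for Abstinence over Maintenance (unadjusted p = 0.00883, adjusted p = 0.204). Its partner Ldhb, whose subunit favours pyruvate, was far more abundant: Ldha held 10.1 ± 0.841% of the transcripts of the 2 genes per kb in Saline, 10.5 ± 0.758% in Maintenance and 10.3 ± 0.856% in Abstinence. Ldhb measured 1239.6 ± 41.1, 1296 ± 237 and 1152 ± 57.7 CPM, with a log2 fold change of -0.17 ± 0.08 for Abstinence over Maintenance (adjusted p = 0.388). The genes most like Ldha over the libraries were Emc2, of the membrane protein insertion complex, and Psmc4, of the proteasome (0.56 and 0.60 SD units).

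The other 16 glycolytic enzymes of the list gave no call by edgeR in any comparison. In Maintenance against Saline 2 of 16 were at an unadjusted p under 0.05, against 11.8% of all genes, with a median log2 fold change of 0.10, and DESeq2 called 1, Tigar, a bisphosphatase that lowers glycolytic flux (4.50 ± 1.76 CPM in Saline, 2.13 ± 0.763 in Maintenance; edgeR log2 fold change -1.08, adjusted p = 0.131), named here after its values were seen. All 7 Abstinence libraries lay above the highest Maintenance library for Tigar, at 0.92 ± 0.34 (adjusted p = 0.246). Groups that did not overlap between Abstinence and Maintenance were found for 0.403% of all genes. In Abstinence against Saline 0 of 16 were at an unadjusted p under 0.05 (median -0.0086) and neither DESeq2 nor limma voom called any. In Abstinence against Maintenance 5 of 16 were at an unadjusted p under 0.05, against 11.0% of all genes, and 11 of 16 had a negative value, against 7924 of 16121 (median -0.16), again with no call by edgeR, DESeq2 or limma voom. Without Maintenance 6, 7 and 8 the list's median was -0.02 for Maintenance over Saline and 0.02 for Abstinence over Maintenance, so both medians turn in sign. For Abstinence over Maintenance, Gpi1, the isomerase after hexokinase, was at -0.15 ± 0.12, Tpi1, which interconverts the triose phosphates, at -0.20 ± 0.11, the mutase gene Pgam1 at -0.24 ± 0.10 and the enolase gene Eno1 at -0.22 ± 0.10, with adjusted p from 0.308 to 0.765. Eno1 was also highest in Maintenance 8 (1321 CPM, beside a Maintenance median of 739). The aldolase made by these cells was largely Aldoa, at 89.4 ± 5.99% of Aldoa and Aldoc per kb in Saline.

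Pdk1 (chr2:71873215-71903858, plus strand) encodes pyruvate dehydrogenase kinase 1, which phosphorylates the pyruvate dehydrogenase complex and so keeps pyruvate out of the citric acid cycle. It fell in Maintenance. The Saline libraries measured 172 to 194 CPM (median 183), the Maintenance libraries 109 to 200.4 (median 137) and the Abstinence libraries 159 to 188 (median 179). In Maintenance 7 of 8 libraries lie at 109 to 146 CPM, below every Saline and every Abstinence library, and the remaining library, Maintenance 7 at 200.4 CPM, is the highest of all 23. The log2 fold change for Maintenance over Saline was -0.38 ± 0.08 (adjusted p = 0.0270), a level 0.766 times that of Saline (95% interval 0.680 to 0.864). For Abstinence over Saline it was -0.07 ± 0.09 (adjusted p = 0.999), and for Abstinence over Maintenance 0.31 ± 0.09, with all 7 Abstinence libraries above the Maintenance median and an adjusted p of 0.0758. That last change passed in DESeq2 (0.30 ± 0.09, adjusted p = 0.0324), in limma voom (0.36 ± 0.06, adjusted p = 0.00173) and without Maintenance 7 (0.40 ± 0.06, adjusted p = 0.00175). Without Maintenance 7, Maintenance over Saline was -0.47 ± 0.06 (adjusted p = 0.000163), and without Maintenance 6, 7 and 8 it was -0.45 ± 0.06 (adjusted p = 0.000166).

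Other cell markers moved with the Pdk1 comparison. Of the 12 oligodendrocyte markers, all tested and none at 0, 10 had positive log2 fold changes for Maintenance over Saline (summed 654 to 5464 CPM in Saline and 1331 to 5386 in Maintenance). All 9 tested neutrophil markers of 12 had negative ones (49.5 to 943 and 9.40 to 194 CPM, with Mpo and Elane at 0 in Maintenance), as were all 6 tested erythrocyte markers of 7 (162 to 691 and 60.0 to 503 CPM, with Slc4a1 at 0 in Maintenance), and 0 genes of these 3 lists were called. In the same comparison 11 of 12 microglial markers had negative log2 fold changes (median -0.14), and positive ones were found for 9 of 10 astrocyte markers (median 0.30), 9 of 10 endothelial markers (0.45), 5 of 6 pericyte markers (0.22) and 7 of 8 border macrophage markers (0.29), again with 0 called. Of the 9 choroid and ependymal markers 5 were tested, with 3 positive and 2 negative values (median 0.69), and 1 was called, higher. Their summed level had a median of 78.8 CPM in Saline and 237 CPM in Maintenance. Among the 8 monocyte markers 5 were negative and 3 positive (median -0.75), with 0 called. The part of these lists in the Pdk1 result was not tested beyond the covariates named here. With the means of the oligodendrocyte and neutrophil lists as covariates, the Pdk1 value was of the same size, -0.37 ± 0.11, and was not called (adjusted p = 0.245), and with the endothelial list it was -0.39 ± 0.08 (adjusted p = 0.0266). The call was also lost in a fit of the 2 compared groups alone (-0.38 ± 0.09, adjusted p = 0.0862) and without Saline 2, Saline 3 or Maintenance 3 (adjusted p of 0.0605, 0.0584 and 0.0527). In Abstinence, where Pdk1 measured 159 to 188 CPM, the oligodendrocyte markers summed to 1856 to 4781 CPM and the neutrophil markers to 14.6 to 167 CPM, with Mpo, Elane, Ltf and Ly6g at 0.

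Pdk1 was the main kinase of its family in these cells. Per kb it held 57.3 ± 2.36% of the Pdk1 to Pdk4 transcripts in Saline, 50.7 ± 11.2% in Maintenance (32.3% to 71.0%) and 57.1 ± 2.32% in Abstinence. Pdk2 measured 30.2, 32.9 and 30.9 CPM and Pdk3 27.1, 26.3 and 23.9 CPM in Saline, Maintenance and Abstinence, with log2 fold changes of 0.13 ± 0.22 and -0.04 ± 0.19 for Maintenance over Saline. Pdk4, the starvation-induced kinase, was near the limit of detection at 0.649 ± 0.405 CPM in Saline and 3.68 ± 3.64 in Maintenance, where it ranged from 0 to 12.0 CPM with the highest value in Maintenance 8 (2.51 ± 0.95, adjusted p = 0.245). Of the 13 listed genes of pyruvate entry and the pyruvate dehydrogenase complex, 0 were called by edgeR in each comparison, with 3, 1 and 1 at an unadjusted p under 0.05, and DESeq2 called 0 in each. Over all genes the shares at an unadjusted p under 0.05 were 11.8%, 4.39% and 11.0%. Mpc1, a subunit of the mitochondrial pyruvate carrier, measured 159 ± 7.78 CPM in Saline, 137 ± 20.3 in Maintenance and 132 ± 14.8 in Abstinence. In both methamphetamine groups all libraries but 1 lay below the lowest Saline library (7 of 8 in Maintenance, at -0.21 ± 0.08, adjusted p = 0.273). For Abstinence over Saline Mpc1 had a log2 fold change of -0.27 ± 0.09 (unadjusted p = 0.00435, adjusted p = 0.649), a change that limma voom alone called among the settings tried. Mpc2, the other subunit, was at 0.26 ± 0.17 and 0.02 ± 0.18 against Saline, and Pdha1, which encodes the phosphorylated subunit of the complex, at 0.01 ± 0.12 and -0.07 ± 0.12.

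Hif1a (chr12:73901324-73947554, plus strand) encodes HIF-1α. It measured 162 to 223 CPM in Saline (median 208), 173 to 252 in Maintenance (median 195) and 184 to 255 in Abstinence (median 218). The groups overlap, 6 of 7 Abstinence libraries lie above the Saline median and 3 lie above the highest Saline library. The log2 fold change was 0.01 ± 0.08 for Maintenance over Saline (adjusted p = 0.981), 0.17 ± 0.09 for Abstinence over Saline (adjusted p = 0.999) and 0.15 ± 0.09 for Abstinence over Maintenance (adjusted p = 0.565). On the linear scale the 95% interval for Maintenance over Saline is 0.895 to 1.14 and for Abstinence over Saline 0.992 to 1.27. The genes most like Hif1a were Arhgap17 and Atg10 (0.67 and 0.69 SD units). An overlapping non-coding gene, Gm15283, had a mean of 24.6 counts beside 15994 for Hif1a.

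The partners and regulators of HIF gave no call by edgeR, with 1, 0 and 2 of 10 tested genes of 11 at an unadjusted p under 0.05 in the 3 comparisons (Hif3a did not pass the filter on low counts). Among all genes 11.8%, 4.39% and 11.0% were at such a p. Arnt, the constant partner subunit, measured 45.3 ± 6.12, 47.6 ± 11.1 and 39.5 ± 6.74 CPM, and Epas1, which encodes HIF-2α and is high in endothelium, 33.5 ± 17.1, 49.9 ± 38.2 and 37.7 ± 15.5, with 128 CPM in Maintenance 6. Vhl, the ubiquitin ligase subunit that recognises hydroxylated HIF-α, was at 0.20 ± 0.08 for Abstinence over Maintenance (adjusted p = 0.289). The oxygen sensors Egln1 and Hif1an had log2 fold changes between -0.15 and 0.21 in all comparisons, and Egln3 was under 1 CPM on average in each group. Tceb1, which encodes the elongin C partner of Vhl, was at 0.30 ± 0.07 for Abstinence over Maintenance (adjusted p = 0.0509) and passed in 9 of the 37 other settings tried, DESeq2 and limma voom among them. It is named after its values were seen, with all 7 Abstinence libraries above the highest Maintenance library. Between these groups 0.403% of all genes did not overlap.

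Other HIF target genes, 20 by list of which 19 were tested (Stc2 did not pass the filter), had a median log2 fold change of 0.40 in Maintenance against Saline, with 17 of 19 positive, beside an all-gene median of 0.0052 with 8154 of 16121 positive. Oligodendrocyte markers had a median of 0.88 in that comparison (10 of 12 positive), endothelial markers 0.45 (9 of 10) and astrocyte markers 0.30 (9 of 10), and their part in the list's median was not tested. Only P4ha1 was called, with 5 of 19 at an unadjusted p under 0.05 (P4ha1, Ndrg1, Mxi1, Bhlhe40 and Vldlr, the last 4 named after their values were seen), against 0.707% called and 11.8% at an unadjusted p under 0.05 among all genes. P4ha1, a prolyl hydroxylase of collagen synthesis, rose in Maintenance: it measured 278 to 403 CPM in Saline (median 344), 365 to 481 in Maintenance (median 442) and 269 to 386 in Abstinence (median 364). Of the Maintenance libraries 7 of 8 lie above the highest Saline library. The log2 fold change was 0.37 ± 0.08 for Maintenance over Saline (adjusted p = 0.0250), 0.04 ± 0.08 for Abstinence over Saline and -0.33 ± 0.08 for Abstinence over Maintenance (adjusted p = 0.0475), so P4ha1 also fell between those groups. The first call was kept in each of 23 fits without 1 library and lost with the oligodendrocyte and neutrophil covariates (0.37 ± 0.10, adjusted p = 0.189) and with 1 surrogate variable (adjusted p = 0.0669), while the second was lost in 12 of 23 (without Maintenance 1, 2, 4, 5 or 6 or any 1 of the 7 Abstinence libraries), with adjusted p of 0.0503 to 0.109.

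The remaining HIF targets of the list differed in level and in spread. Bnip3, a mitophagy receptor, measured 129 ± 10.0, 133 ± 15.7 and 114 ± 10.5 CPM (Abstinence over Maintenance -0.22 ± 0.08, adjusted p = 0.201). Ddit4, an inhibitor of mTORC1, was at 0.38 ± 0.25 and Ero1l, an oxidase of the endoplasmic reticulum, at 0.35 ± 0.27 for Maintenance over Saline, neither called. Vegfa, the angiogenic factor, had 0 counts in 7 of 8 Saline libraries and group means of 0.0493, 0.189 and 0.408 CPM, so no fold is given. In Abstinence against Saline the list's median was 0.03 with 0 of 19 called and 2 at an unadjusted p under 0.05 (4.39% of all genes), and DESeq2 and limma voom also called 0. In Abstinence against Maintenance the median was -0.24 with 15 of 19 negative and P4ha1 the 1 gene called, against 0.949% of all genes. Without Maintenance 6, 7 and 8 the medians were 0.21 for Maintenance over Saline, with P4ha1 as the 1 gene at an unadjusted p under 0.05, and -0.14 for Abstinence over Maintenance. The list's medians include genes under 1 CPM such as Vegfa and are given as descriptions.

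**Figure D5:**
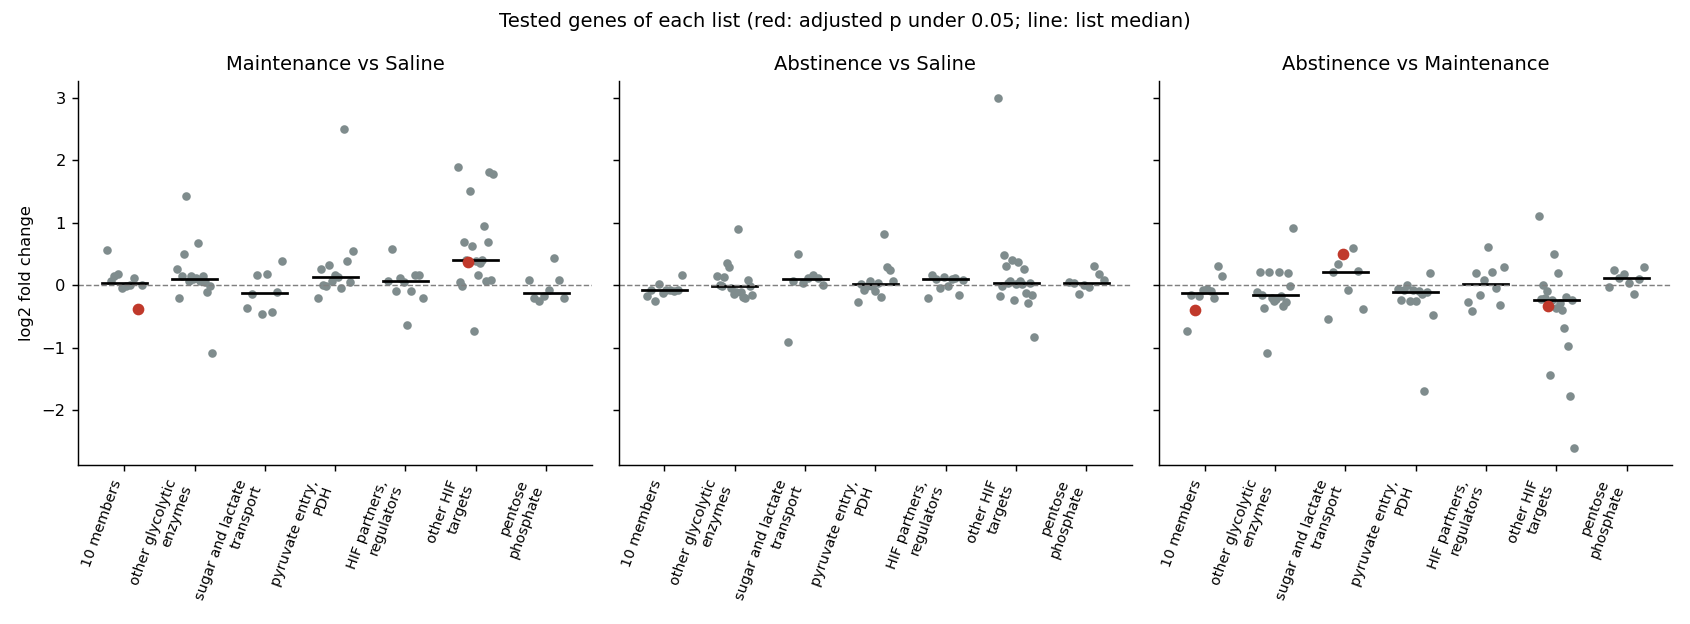
Log2 fold changes (vertical axis) of every tested gene of the 10 members and the 6 lists in the 3 comparisons, with list medians as black lines and called genes in red. The other HIF targets have a median of 0.40 in Maintenance against Saline and -0.24 in Abstinence against Maintenance, and the called points outside the 10 genes are P4ha1 and Slc2a8.

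The pentose phosphate pathway, which branches off after hexokinase and supplies NADPH, gave no call by edgeR, DESeq2 or limma voom among 8 tested genes, and 0 were at an unadjusted p under 0.05 in any comparison. G6pdx, its entry enzyme, measured 62.5, 66.2 and 64.7 CPM in Saline, Maintenance and Abstinence, with log2 fold changes of 0.08 ± 0.10, 0.05 ± 0.11 and -0.03 ± 0.11. Pgd, the next dehydrogenase, measured 74.7, 64.5 and 76.5 CPM, at -0.21 ± 0.12 for Maintenance over Saline (adjusted p = 0.549).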

How the data were processed

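Bulk RNA-seq of striatal microglia was deposited as 1 table of gene counts for all 23 libraries and a table with the same counts for 17 of them, in which 0 of 611592 values differed. The second table leaves out Saline 5, Saline 6, Saline 8 and Maintenance 6, 7 and 8. Per the submitters' processing notes, the authors used the mm10/GRCm38 build with STAR (2.7.10a), DESeq2 (1.38.3), Trim Galore (0.6.7), cutadapt (1.18) and StringTie (2.1.5). Their order, settings and strandedness, the isolation of the cells and the origin of each replicate are not given in the sources used here. Per the labels, the libraries were made with a low-input kit.

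The deposited counts were analysed with edgeR 4.0.16 in R 4.3.3: genes were kept by filterByExpr (minimum count 10, total 15), scaled by TMM and fitted over all 3 groups with glmQLFit and glmQLFTest (robust), and p-values were adjusted by Benjamini-Hochberg over 16121 genes, with calls at an adjusted p under 0.05. Errors of fold changes are standard errors, with 95% intervals. The alternatives were RLE and upper-quartile scaling, other filters, DESeq2 1.42.0, limma 3.58.1 voom with quality weights, a replicate block, only the compared groups, no robust step, 1 surrogate variable (sva 3.50.0), marker covariates and libraries left out.

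The members and lists were chosen with earlier results of these data known. Named genes are the 10 members, every listed pathway gene called in a comparison, 32 pathway genes named whatever their p, and the 2 genes most alike to Slc2a1, Hk2, Ldha and Hif1a. Others are said to be named after their values were seen. Whether replicate numbers pair libraries is not stated in the labels. Of 22 same-number pairs, 0 correlated above 0.1 in their deviations from group means, which gives no sign of pairing. The correlation runs over all tested genes and would miss a pairing that touched few of them, so pairing is not excluded.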

Additional observations from a re-analysis of the deposited data

Results flagged for a closer look

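In 9 of 36 sets of 1 gene in 1 group (the 10 genes with P4ha1 and Slc2a8, in 3 groups), 1 library stood far from the rest of its group by Dixon's criterion, which chance meets in about 1 in 20 sets. Of these 9 sets, 4 are from Maintenance 8, the library with the choroid and ependymal markers, where Aldoa measured 1195 CPM, Gapdh 374.6, Pgk1 170.3 and Pkm 1045. Slc2a1 was far above the other Maintenance libraries in Maintenance 6, at 831.9 CPM, the library with the most endothelial markers. Pdk1 was far above the other Maintenance libraries in Maintenance 7, at 200.4 CPM. Hk2 stood high in Abstinence 5 at 294.9 CPM and Aldoa high in Saline 6 at 698.3 CPM. P4ha1 stood low in Abstinence 7 at 269.4 CPM. The fold changes of Slc2a1, Pdk1, Aldoa, Gapdh, Pgk1 and Pkm without these Maintenance libraries stand in the report. Without Abstinence 5, Hk2 was at -0.21 ± 0.08 for Abstinence over Maintenance (adjusted p = 0.255) and -0.15 ± 0.08 for Abstinence over Saline. Without Saline 6, Aldoa was at 0.21 ± 0.10 for Maintenance over Saline (adjusted p = 0.456). Without Abstinence 7, P4ha1 was at -0.28 ± 0.08 for Abstinence over Maintenance (adjusted p = 0.0887) and was not called.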

How the results depend on the processing

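Without 1 library at a time, the number of genes called ranged from 42 to 197 for Maintenance against Saline, 1 to 15 for Abstinence against Saline and 89 to 265 for Abstinence against Maintenance. Of the 10 members, 0 to 1 were called in the first and the last of these comparisons. For Maintenance against Saline 114 genes were called, and 349 by DESeq2, 413 by limma voom, 69 with the replicate block, 57 with only the compared groups, 176 in the libraries of the second table and 40 with oligodendrocyte and neutrophil covariates. For Abstinence against Saline the 3 genes became 6 with 1 CPM in every library of a group, 36 by DESeq2, 208 by voom, 5 with only the compared groups, 15 without Maintenance 6, 7 and 8, 56 in the second table's libraries and 0 with the oligodendrocyte and neutrophil covariates. For Abstinence against Maintenance the 153 genes became 242 at 1 CPM, 452 by DESeq2, 340 by voom, 64 with only the compared groups, 89 with 1 surrogate variable and 238 in the second table's libraries. Members called in Maintenance against Saline fell to 0 with the block, with only the compared groups and with the oligodendrocyte and neutrophil covariates. In Abstinence against Saline voom called 1. In Abstinence against Maintenance 2 were called by DESeq2, by voom and with the endothelial covariate, and 0 with only the compared groups and with 1 surrogate variable; the cause was not tested.

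Among the lists for Maintenance against Saline, DESeq2 called 1 other glycolytic enzyme and 1 transporter, voom called 1 transporter, and the other HIF targets had 0 with 1 surrogate variable and with the oligodendrocyte and neutrophil covariates. For Abstinence against Saline voom called 1 gene of pyruvate entry. For Abstinence against Maintenance the transporters had 0 with no filter, the block, only the compared groups, 1 surrogate variable, without Maintenance 6, 7 and 8 and in the second table's libraries. The HIF partners had 1 with RLE, 1 CPM, DESeq2, voom and the endothelial covariate. The other HIF targets had 0 with upper-quartile factors, no filter, only the compared groups, no robust step and 1 surrogate variable, and 2 by DESeq2. Without 1 library at a time, the transporters ranged from 0 to 1 in both Maintenance comparisons, the HIF partners from 0 to 1 and the other HIF targets from 0 to 2 in Abstinence against Maintenance.

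Some values near 0 changed sign, none of them called. For Maintenance over Saline these were Gapdh (0.042 with 1 surrogate variable, 0.058 with the oligodendrocyte and neutrophil covariates), Pgk1 (0.018 with RLE, 0.021 at 1 CPM, 0.018 by DESeq2, 0.039 with 1 surrogate variable, 0.075 with those covariates), Pkm (-0.019 with upper-quartile factors, -0.10 by voom, -0.038 with the block, -0.14 without Maintenance 6, 7 and 8, -0.13 in the second table's libraries) and Hif1a (-0.0041 by voom, -0.028 with 1 surrogate variable). For Abstinence over Saline they were Slc2a1 (0.042) and Slc2a8 (-0.029) in the second table's libraries, Pgk1 (0.028), Pkm (0.12) and Ldha (0.0095) with those covariates and P4ha1 (-0.016) by voom. For Abstinence over Maintenance they were Gapdh (0.014 by voom), Pgk1 (0.079 by voom, 0.032 with the block, 0.14 without Maintenance 6, 7 and 8, 0.13 in the second table's libraries) and Pkm (0.024, 0.0028, 0.053 and 0.047 in the same settings). Without 1 library at a time, Pgk1 ranged from -0.18 to 0.044, Pkm from -0.16 to 0.048 and Hif1a from -0.030 to 0.042 for Maintenance over Saline. Aldoa ranged from -0.011 to 0.037, P4ha1 from -0.0088 to 0.080 and Slc2a8 from -0.020 to 0.11 for Abstinence over Saline, and Gapdh from -0.12 to 0.040, Pgk1 from -0.12 to 0.096 and Pkm from -0.14 to 0.061 for Abstinence over Maintenance.

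The replicate numbers are shared across groups, and 1 of 23 libraries correlated best with its own number. With the replicate block Pdk1 was at -0.40 for Maintenance over Saline (adjusted p = 0.0553) and Pfkl at -0.42 for Abstinence over Maintenance (adjusted p = 0.0448), and 69, 4 and 126 genes were called in the 3 comparisons.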
